A study of Hymenochirus boettgeri with 8 samples.

Results

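In Hymenochirus boettgeri, the dwarf clawed frog, 125 of 145306 assembly genes (0.086%) were abundant in eggs and cleaving embryos, far lower at stage 26 and in swimming tadpoles, and still detected in every late library. Poly-A RNA was sequenced from whole wild-type animals at 4 stages, with 2 libraries each: unfertilized eggs, 8-cell embryos, embryos at NF stage 26 and swimming tadpoles. NF stages are those of the Nieuwkoop and Faber table for Xenopus, and stage 26 is a tailbud stage. The labels give no treatment, age or clutch for any library. Values are TPM, the abundance of a transcript relative to the whole library and corrected for its length, summed here over the transcripts of 1 assembly gene.

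The genes were chosen on the values themselves. Each had at least 50 TPM in all 4 egg and 8-cell libraries (called early here), at least 1 TPM in all 4 stage 26 and tadpole libraries (called late), and a late maximum of at most 0.25 times its early minimum. A limit of 300 genes was not reached. The fall between early and late is therefore a description and carries no test. At the edge of the early limit, the lowest member minimum was 50.7 TPM, and the nearest gene outside had 49.8 TPM. The highest late maximum of a member was 0.2499 times its early minimum, against 0.2526 in the nearest gene outside. The lowest late value of a member was 1.20 TPM, against 0.999 TPM outside. The identifiers carry no gene names, so members are described as a group and by identifier for a few, and marker genes of tissues could not be looked up.

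Eggs of frogs are loaded during oogenesis with maternal mRNA, which directs the first cleavages while the embryo's own genome is largely silent. The genome is switched on at the midblastula transition, and many maternal mRNAs lose their poly-A tails and are degraded in early development. Other genes are transcribed again by the embryo, often in few tissues, so that an mRNA measured late may be an old copy or a new one. Poly-A capture recovers mRNA according to its tail, and TPM from whole animals cannot tell apart fewer cells that express a gene and less RNA per cell.

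Most genes that were this abundant early were not lowered to this extent. Of the 1140 genes with at least 50 TPM in all 4 early libraries, 125 (10.96%) were members. Another 40 met the same limit on the fall but lay under 1 TPM in at least 1 late library, and 975 kept more than 0.25 times their early minimum in some late library. Late values of all 4 libraries were under 1 TPM for 16 of the 1140 genes.

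The members held 8.23% of all TPM in egg replicate 1, 5.08% in egg replicate 2, 5.91% in 8-cell replicate 1 and 5.20% in 8-cell replicate 2. Late, they held 0.187% and 0.4201% in stage 26 replicates 1 and 2, and 0.210% and 0.136% in tadpole replicates 1 and 2. Eggs had a mean of 6.65% ± 2.22 and 8-cell embryos one of 5.55% ± 0.507 (SD, n = 2 per stage). The mean was 0.304% ± 0.165 for stage 26 embryos and 0.173% ± 0.0524 for tadpoles. The egg libraries spanned a wider range than the 8-cell libraries, with egg replicate 1 highest of all. Stage 26 replicate 2 was the highest late library, and tadpole replicate 1 lay between the 2 stage 26 libraries.

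The median member was at 262 TPM in egg replicate 1, 162 TPM in egg replicate 2, 207 TPM in 8-cell replicate 1 and 185 TPM in 8-cell replicate 2. At the late stages the median was 9.47 TPM in stage 26 replicate 1, 19.1 TPM in stage 26 replicate 2, 8.998 TPM in tadpole replicate 1 and 5.94 TPM in tadpole replicate 2. Stage 26 replicate 2 thus stood above the other late libraries, whose medians lay between 5.94 and 9.47 TPM.

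**Figure D1:**
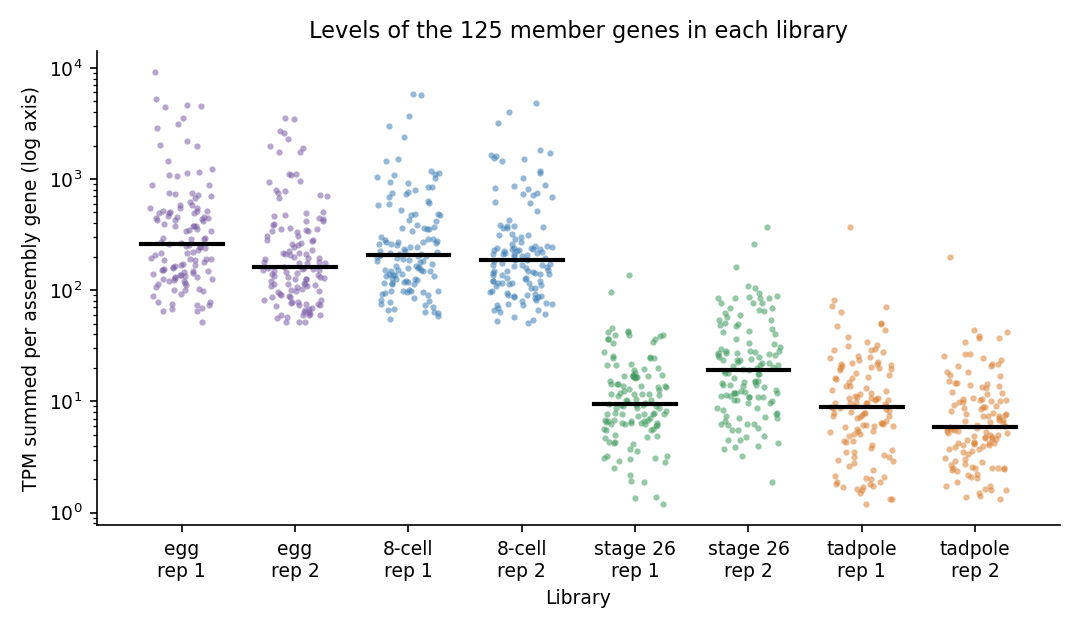
TPM of each of the 125 members (points, log axis) in each of the 8 libraries, with the median as a bar. Medians run from 162 to 262 TPM in the egg and 8-cell libraries and from 5.94 to 19.1 TPM in the stage 26 and tadpole libraries.

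Members differed widely in abundance and in how much was left. The mean over the 4 early libraries ran from 59.95 to 5348 TPM with a median of 224 TPM, and 13 members were at 1000 TPM or more. The 10 most abundant members held 44.9% of the members' summed early mean. The mean over the 4 late libraries ran from 1.73 to 269 TPM with a median of 10.7 TPM. As a share of the early mean, the late mean was between 0.151% and 13.1%, with a median of 5.72%.

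The early mean exceeded the late mean at least 10-fold in 113 members, at least 20-fold in 51, at least 50-fold in 11 and at least 100-fold in 6. The median was 17.5-fold and the highest 661-fold. The lowest was 7.61-fold, in the member that also lay nearest to the limit on the late maximum. All 4 late libraries were at 10 TPM or more for 29 members, and at 5 TPM or less for 4. More abundant members had larger folds (Pearson r = 0.54 between log2 early mean and log2 fold, Spearman rho = 0.44, n = 125 genes). This is a description across genes that share libraries, with the early mean on both axes and a lower limit on the late values.

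**Figure D2:**
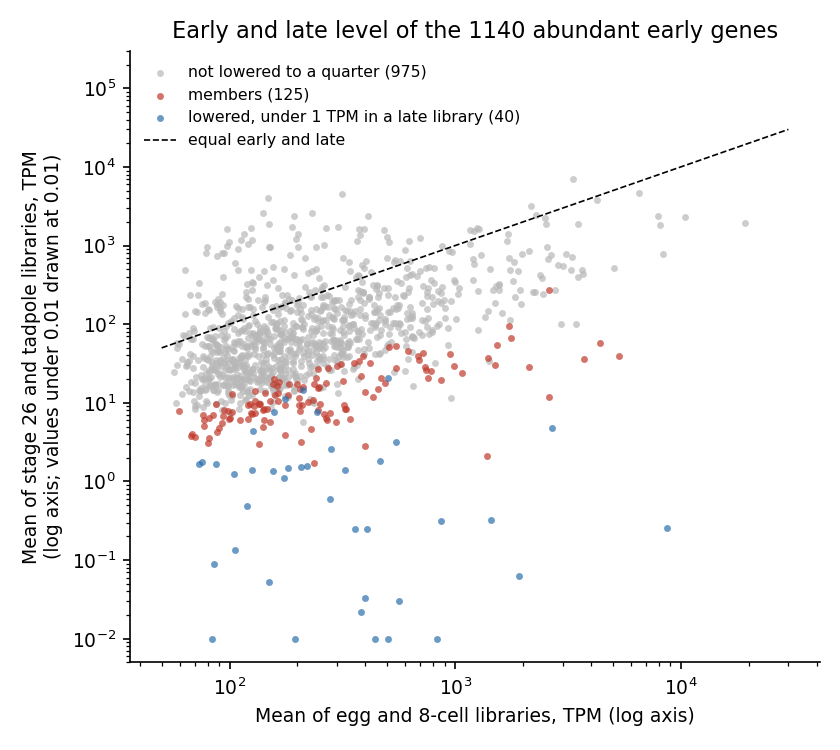
Mean late against mean early TPM (log axes) for the 1140 genes with at least 50 TPM in all early libraries. The 125 members lie below the dashed line of equal levels and overlap in part with the 975 genes that were not lowered as far and with the 40 that were under 1 TPM in a late library.

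The member highest in the early libraries, c94988_g2, was at 9107 and 1734 TPM in eggs, 5758 and 4795 TPM at the 8-cell stage, 39.4 and 94.8 TPM at stage 26, and 13.8 and 7.71 TPM in tadpoles (replicates 1 and 2 in each). The egg libraries lay above and below both 8-cell libraries, while both tadpole libraries lay below both stage 26 libraries. Its early mean was 137 times its late mean. The next, c11609_g1, was at 4399 and 3438 TPM in eggs, 5685 and 3980 TPM at the 8-cell stage, 42.7 and 162 TPM at stage 26, and 12.4 and 13.7 TPM in tadpoles. It was again lowest in the tadpole libraries, with its early mean 75.7 times its late mean. These 2 members held 16.0% of the members' summed early mean.

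Of the 125 members, 8 lay in pairs within 4 assembly components. Components are read here from the form of the identifiers, as sets of assembled sequences that an assembler linked through shared stretches. On that reading, these pairs may be parts of 1 gene or near-identical copies, and reads may be split between them. In 3 of the 4 pairs, the 4 early libraries ranked in the same order for both genes. The pair with c94988_g2, c94988_g1, was at 5261 and 951 TPM in eggs and 2373 and 1839 TPM at the 8-cell stage, so that both genes were highest in egg replicate 1 and lowest in egg replicate 2. Another 27 members shared a component with at least 1 assembly gene that is no member, 57 such genes in all, of which up to 11 lay in a single component. Of the 57, 28 had an early mean at least 2-fold above the late mean, 20 had a late mean at least 2-fold above the early mean and 9 lay between. The early mean was under 1 TPM for 20 of the 57. Most of these 20 lay in the components c127931 and c121504. A few members thus shared their component with sequence that was close to undetected early.

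The 8-cell stage against the egg covers fertilization and the first cleavages, a contrast that the choice of members did not use. The choice did set a lower limit on every egg and 8-cell value, which bounds this step. No member passed the test in either direction, and no gene of the 119072 tested did (0% called each way; limma on log2(TPM + 1), adjusted p under 0.05 by Benjamini-Hochberg). At an unadjusted p under 0.05 there were 0 members, against 5.9% of all genes higher and 0.49% lower at the 8-cell stage. The smallest adjusted p of a member was 0.869 (limma). All 125 members passed the filter on low values, as the choice of members guarantees. The median change of the members was -0.20 on the log2(TPM + 1) scale, with 81 members lower and 44 higher at the 8-cell stage. Over all genes tested the median was 0, and it was 0.26 without genes at 0 in all egg and 8-cell libraries. Among the 975 abundant genes that were not lowered to the same extent it was 0.03. The median standard error of a member's log2 change was 0.68, and the unadjusted 95% interval reached 1.59 to either side. Changes within that range were not detectable for the typical member. Larger changes could also fail the test, which was adjusted over all genes tested.

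Both 8-cell libraries lay below both egg libraries for 26 members (20.8%; 3.13% of all genes tested) and above them for 14 (11.2%; 20.5% of all genes). Among the 975 abundant genes that were not lowered to the same extent, the shares were 16.6% below and 18.3% above. The balance within the members rested on single libraries and on the scaling. Without egg replicate 1, 57 members were lower and 68 higher, with a median of 0.07. Without egg replicate 2, 90 were lower, with a median of -0.48. With median-of-ratios scaling, 115 were lower and 10 higher, with a median of -0.88, and both 8-cell libraries lay below both egg libraries for 75 (7.70% of all genes). With quantile normalization that count was 41, when 38.1% of all genes were below. It was 82 without egg replicate 2 (14.2% of all genes) and 48 without 8-cell replicate 1 (4.91% of all genes), where 1 library stands for a stage. The count above was no steadier. It was 2 with median-of-ratios scaling (12.6% of all genes), 55 without egg replicate 1 (31.0%), 26 without egg replicate 2 (34.0%) and 29 without 8-cell replicate 2 (29.9%).

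The egg libraries disagreed more than the 8-cell libraries. Egg replicate 1 was above egg replicate 2 for 94 of 125 members, by more than 2-fold for 39, while replicate 2 was more than 2-fold higher for 7. The 8-cell libraries differed more than 2-fold for 5 members. Of the 975 other abundant early genes, 599 were higher in egg replicate 1 and 376 in replicate 2. Among them 438 differed more than 2-fold between the egg libraries and 108 between the 8-cell libraries. Transcripts above 0 numbered 69245 in egg replicate 1 and 104166 in egg replicate 2. Across the members, log2 levels correlated at r = 0.74 between the egg libraries and r = 0.94 between the 8-cell libraries (n = 125 genes, which are no independent replicates).

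Among members whose egg and 8-cell libraries did not overlap, c158922_g1 had the largest positive difference at the 8-cell stage. It was at 122 and 126 TPM in eggs, 478 and 273 TPM at the 8-cell stage, 7.68 and 22.7 TPM at stage 26, and 22.2 and 10.2 TPM in tadpoles. Both 8-cell libraries lay above both egg libraries, and the late stages overlapped. The log2 change was 1.54 (SE 0.72, adjusted p = 0.869, limma), which did not pass the test. For c94331_g1 the egg libraries were at 377 and 69.2 TPM and the 8-cell libraries at 526 and 390 TPM, and the log2 change was 1.48 (adjusted p = 1 by limma, SE 0.87). That change rested on the egg libraries, at 0.26 without egg replicate 2 and 2.69 without egg replicate 1. Its stage 26 libraries were at 6.63 and 14.9 TPM and its tadpole libraries at 2.03 and 1.51 TPM, so that tadpoles were below stage 26 in both.

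In the other direction, c63440_g1 was at 442 and 710 TPM in eggs and 160 and 366 TPM at the 8-cell stage (log2 change -1.21, SE 0.68, adjusted p = 1, limma). The change was -0.61 without 8-cell replicate 1. Late it was at 36.3 and 33.1 TPM at stage 26 and 20.9 and 37.2 TPM in tadpoles, where the stages overlapped. The last of the 4, c164887_g2, was at 4629 and 2720 TPM in eggs and 1511 and 1595 TPM at the 8-cell stage (log2 change -1.19, SE 0.79, adjusted p = 1, limma). It had the highest late level of any member, at 136 and 370 TPM at stage 26 and 373 and 199 TPM in tadpoles. Its late libraries overlapped, and its 2 egg libraries lay above both 8-cell libraries.

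From stage 26 to the tadpole, a step that was likewise not the contrast of the choice, most members had a lower mean level in tadpoles, and 1 passed the test. The choice did bound this step. Every late value had to be at least 1 TPM and at most 0.25 times the early minimum. Genes that fell below the lower limit or rose above the upper one in tadpoles were thus left out. Of the 125, 105 were lower and 20 higher, with a median log2 change of -0.71 (0 over all genes tested) and an interquartile range from -1.21 to -0.24. The mean level was lower by at least 1 on the log2 scale in 42 members and higher by that much in 1. Both tadpole libraries lay below both stage 26 libraries for 58 members (46.4%; 14.9% of all genes tested) and above them for 3 (2.40%; 20.4% of all genes). Among the 975 abundant genes not lowered to the same extent, 29.8% were below and 2.97% above, with a median of -0.54. Among the 40 left out for a value under 1 TPM in a late library, 32.5% were below and 7.5% above, with a median of -0.23. A lower tadpole level was thus also the more frequent direction among abundant early genes outside the members, and the difference between these groups was not tested. Both other groups were also defined on late values. For the 975, 1 late library above 0.25 times the early minimum was enough. The balance of this step in them is therefore not independent of that choice.

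In the limma test at an adjusted p under 0.05, 1 of 125 members was lower in tadpoles (0.981% of all genes). Higher members numbered 0 (4.35% of all genes). Of the 40 abundant early genes under 1 TPM in a late library, 3 were called lower and 0 higher. Of the 975 abundant early genes not lowered to the same extent, 4 were called lower and 0 higher. The shares over all genes depended on which genes and libraries were fitted and on the model. Without genes that had 0 TPM throughout the early stages, 77 of 86802 were called higher and 6 lower, and 0 members were called. With the replicate number as a block, or with only the 2 compared stages fitted, 0 of all genes were called either way. Calls over all genes also fell to few or none when any 1 early library was left out. At an unadjusted p under 0.05, 19 members were lower (4.78% of all genes) and 0 were higher (11.6% of all genes). The median standard error of a member was again 0.68.

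The stage 26 libraries were far apart for these genes, and this moved with the result. Stage 26 replicate 2 was above replicate 1 for 106 of 125 members, with a median log2 difference of 0.87, and it was the highest late library for 89 of them. The 975 other abundant early genes showed the same (80.6% higher in replicate 2, median 1.16), while over all genes tested replicate 2 was higher for 28.1% (median -0.45). Relative to the early mean, the median member was at 4.88% and 8.34% in stage 26 replicates 1 and 2, and at 3.89% and 2.77% in tadpole replicates 1 and 2. Without stage 26 replicate 2, 74 members were lower and 51 higher in tadpoles, with a median of -0.27 (-0.14 over all genes). Without stage 26 replicate 1, 116 were lower, with a median of -1.14 (0.28 over all genes). With 1 library standing for a stage, the count with both tadpole libraries below was 64 against stage 26 replicate 1 alone (41.3% of all genes) and 100 against replicate 2 alone (23.4% of all genes). It was 88 for tadpole replicate 2 alone (22.9% of all genes). The 3 members above became 29 without stage 26 replicate 2 (27.5% of all genes), 5 without stage 26 replicate 1 (42.9%), 7 without tadpole replicate 1 (36.9%) and 15 without tadpole replicate 2 (29.0%). With quantile normalization there was 1 (19.1% of all genes). The 58 members below became 43 with median-of-ratios scaling (14.4% of all genes) and 51 with quantile normalization (20.9% of all genes). What set the stage 26 libraries apart was not tested.

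**Figure D3:**
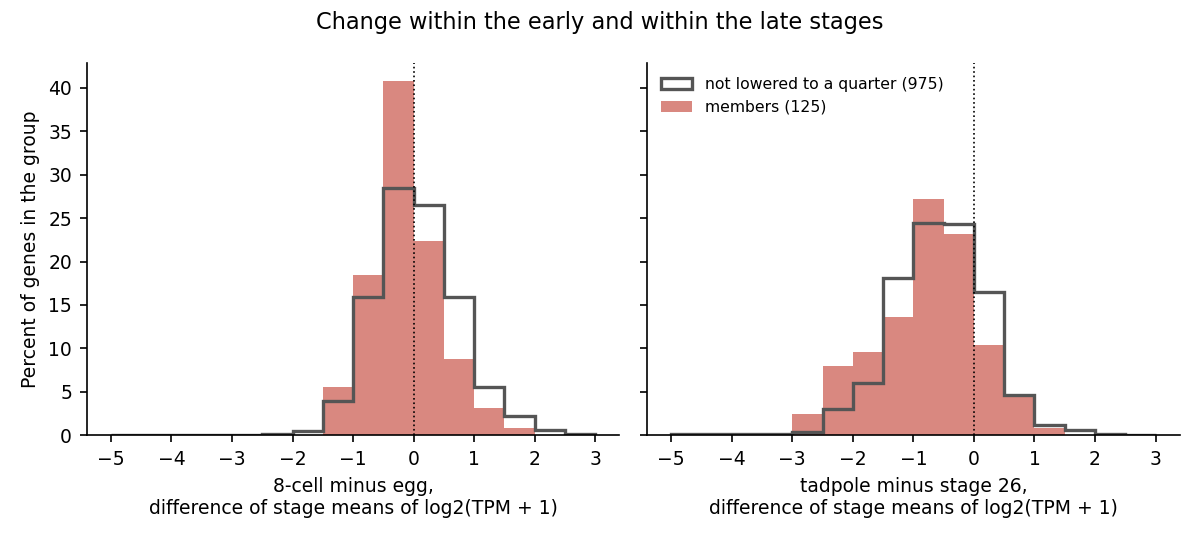
Distribution of the difference of stage means on the log2(TPM + 1) scale for the 125 members (filled) and the 975 abundant early genes that were not lowered to the same extent (outline), as percent of each group. The members centre at -0.20 from egg to 8-cell stage and at -0.71 from stage 26 to tadpole.

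The order of the members by level was also kept best in that library. Across the 125 members, log2 levels in stage 26 replicate 2 correlated with the 4 early libraries at r = 0.65 to 0.78, against 0.44 to 0.58 in stage 26 replicate 1. The tadpole libraries correlated with the early ones at 0.41 to 0.56 (replicate 1) and 0.31 to 0.47 (replicate 2). The genes are not independent replicates, and the choice of members limits the range of the values.

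The member that passed the test was c116321_g1. It was at 3145 and 2567 TPM in eggs, 1109 and 1637 TPM at the 8-cell stage, 34.3 and 69.9 TPM at stage 26, and 6.45 and 4.59 TPM in tadpoles. No 2 stages overlapped, although the 8-cell stage against the egg is no call. From stage 26 to the tadpole the log2 change was -2.96 (SE 0.64, adjusted p = 0.0467, limma), from 52.1 ± 25.2 to 5.52 ± 1.32 TPM (SD, n = 2 each). The call lay close to the threshold and was lost without any 1 library other than stage 26 replicate 1, with adjusted p from 0.0727 to 0.152 (limma). The log2 change was between -3.16 and -2.45 in those fits. It was unchanged at -2.96 without any 1 egg or 8-cell library, where few or no genes were called among all tested. The loss without an egg or 8-cell library was thus not particular to this gene. That does not hold without stage 26 replicate 2 or either tadpole library, where many other genes were still called.

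The next largest negative difference was in c94988_g1, with stage 26 libraries at 17.0 and 26.2 TPM and tadpole libraries at 1.74 and 2.55 TPM (adjusted p = 0.135 by limma, log2 change -2.83, SE 0.87). Its libraries did not overlap, but the difference did not pass the test. Of the 3 members with both tadpole libraries above both stage 26 libraries, c146712_g1 had the largest difference. It was at 514 and 151 TPM in eggs, 121 and 129 TPM at the 8-cell stage, 1.91 and 4.26 TPM at stage 26, and 6.19 and 6.33 TPM in tadpoles. The tadpole libraries were close to each other, and the log2 change was 0.89 (SE 0.71, adjusted p = 0.713, limma), or 0.46 without stage 26 replicate 1. For c140906_g1, stage 26 was at 7.67 and 20.1 TPM and the tadpole at 21.7 and 20.9 TPM, after 262 and 116 TPM in eggs and 129 and 116 TPM at the 8-cell stage. Its log2 change was 0.72 (SE 0.68, adjusted p = 0.786, limma), and stage 26 replicate 2 lay just below the tadpole libraries. Leaving out that library gave a change of 1.36, and leaving out stage 26 replicate 1 gave one of 0.08.

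**Figure D4:**
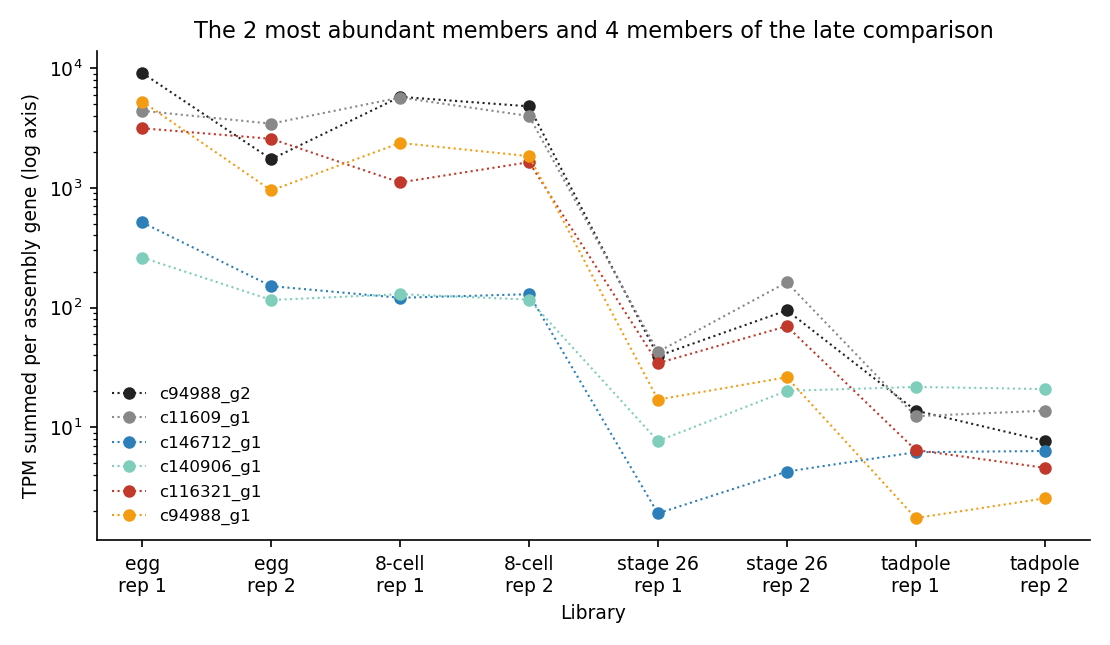
TPM (log axis) in each library for c94988_g2 and c11609_g1, the members highest early, and for the 4 members named for the step from stage 26 to the tadpole (dotted lines join libraries of 1 gene only to guide the eye). c116321_g1 and c94988_g1 are lower in both tadpole libraries than in both stage 26 libraries, and c146712_g1 and c140906_g1 are higher.

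Most members were assembled as a single transcript: 98 of 125 had 1 transcript, 19 had 2, 4 had 3 and 4 had 4. The share with 2 or more was 21.6%, against 34.1% of all genes tested and 29.6% of the 1140 abundant early genes. The 27 members with 2 or more transcripts (66 transcripts) show whether the late remainder was made up of the same transcripts as the early pool. The choice of members used gene totals only, so the split of a total between its transcripts could be tested. The split is estimated, since kallisto divides reads that several transcripts share, and it is less certain at the low late totals.

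The same transcript had the largest mean share early and late in 21 of the 27 members, and a different one in 6. The matching share over all genes tested was not computed, so these counts do not set the members apart. The share of the leading transcript (highest mean share over the 8 libraries) was compared between the 4 late and the 4 early libraries. It was higher late in 2 members (2.12% of the 7927 genes tested) and lower late in 1 (4.58% of all genes; limma on shares, adjusted p under 0.05). The median difference was -2.54 percentage points over the 27 members and -2.80 over all genes tested. All 4 late libraries lay above all 4 early ones for 3 members (5.53% of all genes) and below them for 2 (10.5% of all genes).

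The largest shift was again in c116321_g1, the member that was called between stage 26 and the tadpole. Its transcript c116321_g1_i1 was at 2122 and 1580 TPM in eggs, 709 and 1127 TPM at the 8-cell stage, 2.58 and 4.56 TPM at stage 26, and 2.20 and 0.784 TPM in tadpoles. Its transcript c116321_g1_i2 was at 1023 and 987 TPM in eggs, 400 and 511 TPM at the 8-cell stage, 31.7 and 65.3 TPM at stage 26, and 4.25 and 3.80 TPM in tadpoles. The first transcript was the higher one in all 4 early libraries and the lower one in all 4 late libraries. The early mean was 547 times the late mean for c116321_g1_i1 and 27.8 times for c116321_g1_i2. The share of c116321_g1_i2 was 34.5% ± 3.31 early and 83.7% ± 12.8 late (SD, n = 4 each), a difference of 49.1 percentage points (SE 6.42, adjusted p = 0.0106, limma). From stage 26 to the tadpole its share went from 92.5% and 93.5% to 65.8% and 82.9%.

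In c48396_g1 the late remainder included a transcript with similar means early and late. Its main early transcript, c48396_g1_i2, was at 480 and 256 TPM in eggs, 473 and 232 TPM at the 8-cell stage, 12.5 and 19.997 TPM at stage 26, and 25.7 and 12.9 TPM in tadpoles. The other, c48396_g1_i1, was at 18.4 and 7.95 TPM in eggs, 9.42 and 17.7 TPM at the 8-cell stage, 15.2 and 28.8 TPM at stage 26, and 12.5 and 8.59 TPM in tadpoles. The early and late libraries of the second transcript overlapped, with means of 13.4 ± 5.45 and 16.3 ± 8.79 TPM (SD, n = 4 each). It was the 1 transcript of the 66 with a higher mean late than early. The share of c48396_g1_i2 went from 96.1% ± 2.22 to 53.4% ± 12.3, a difference of -42.7 points (SE 5.59, adjusted p = 0.0106, limma).

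The third call was c73313_g1, whose transcript c73313_g1_i3 made up 17.8% ± 4.99 of the total early and 58.1% ± 17.6 late. The difference was 40.3 points (SE 7.84, adjusted p = 0.0357, limma). This transcript was at 37.9 and 15.9 TPM in eggs, 17.5 and 27.0 TPM at the 8-cell stage, 11.4 and 7.57 TPM at stage 26, and 1.46 and 1.39 TPM in tadpoles. It was lowered least of the 3 transcripts of the gene (4.51-fold between early and late means), and c73313_g1_i2, the leading one early, was lowered 51.7-fold. The call was lost when any 1 library other than tadpole replicate 2 was left out (adjusted p from 0.0560 to 0.146, limma). It was also lost with the replicate number as a block (adjusted p = 0.0711, limma) and with a trend in the mean (adjusted p = 0.0507, limma). The calls of c116321_g1 and c48396_g1 were lost without either 8-cell library. The differences were then 50.3 and 47.9 points for the former and -41.4 and -44.0 points for the latter. Calls over all genes tested also fell in those fits, although other genes were still called.

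In c126996_g1 the share of the leading transcript did not pass the test. It was 84.1% and 84.3% in the egg libraries and 78.9% and 81.5% in the 8-cell libraries. It was 50.4% and 64.8% in the stage 26 libraries and 64.6% and 47.4% in the tadpole libraries. All late libraries lay below all early ones, a difference of -25.4 points (SE 6.89, adjusted p = 0.0931, limma). Among genes with a total of at least 5 TPM in all libraries, the adjusted p was 0.0444 (limma), a fit that left out c116321_g1 and c73313_g1. For the other members with 2 or more transcripts the split was often unstable within a stage. In 1 of them the leading transcript was listed at 0 in stage 26 replicate 1 and tadpole replicate 2 and held 74.5% and 72.7% of the total in the other late libraries. In others, eggs differed from 8-cell embryos. The share of c120925_g2_i1 was 0.15% and 16.2% in eggs and 80.3% and 82.0% at the 8-cell stage. That of c63092_g1_i2 was 98.4% and 99.1% in eggs and 48.9% and 46.8% at the 8-cell stage. The early mean share, its SD and the early leader average over both stages.

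**Figure D5:**
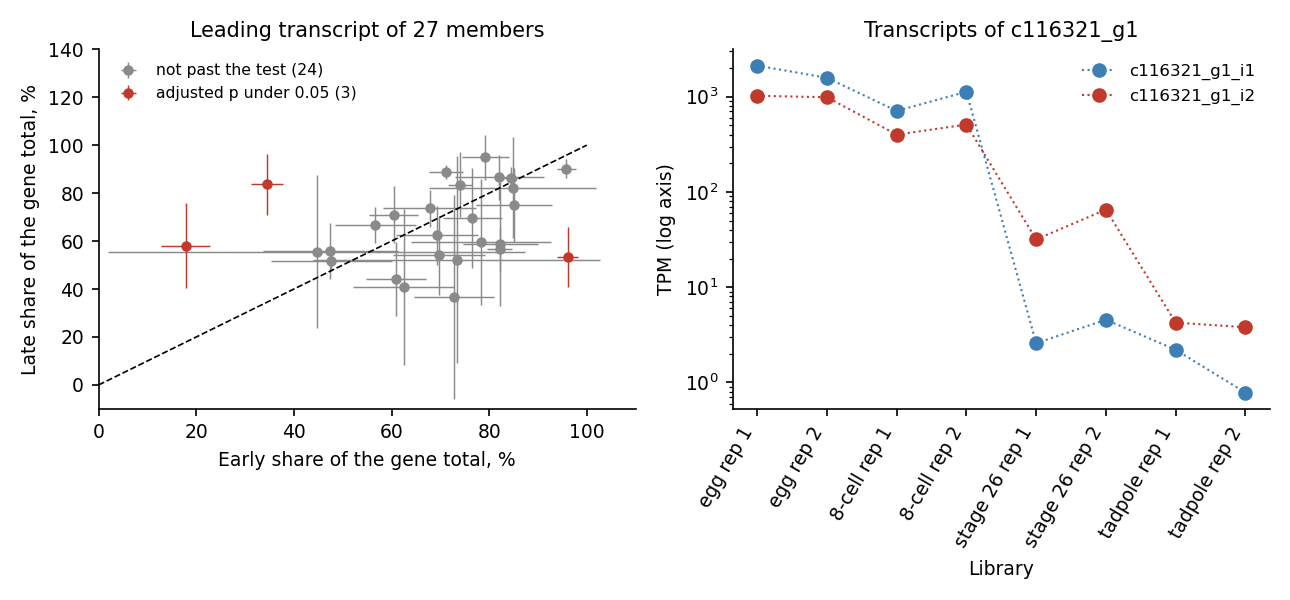
Left, share of the gene total held by the leading transcript in the early and late libraries for 27 members (mean and SD, n = 4 each; dashed line, equal shares), with the 3 that passed the test in red. Right, TPM (log axis) of the 2 transcripts of c116321_g1 in each library, where c116321_g1_i1 is the higher in the early libraries and the lower in the late ones.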

How the data were processed

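The authors' deposited table holds TPM per transcript. The submitters' processing notes name kallisto 0.42.4; how the transcripts were assembled and filtered is not given in the sources used here. kallisto assigns reads to transcripts by pseudoalignment. Columns sum to between 991754 and 998506 TPM. TPM is relative: a rise of other abundant transcripts lowers these genes. TPM keeps no read depth, so no counting intervals were computed. Libraries were matched to stages by their titles and source names; the labels do not say whether they come from separate clutches, so p-values measure the spread between these libraries only.

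TPM was summed per assembly gene. Genes with at least 1 TPM in 2 libraries were tested on log2(TPM + 1), which understates changes of low genes, with limma 3.58.1 (R 4.3.3): 1 mean per stage, all 8 libraries, variances with a trend in the mean, 4 residual degrees of freedom. Leading-transcript shares were tested likewise without a trend, for genes with 2 or more transcripts and at least 1 TPM in all libraries. Fits were tested on simulated data. Summaries used Python 3.11.15 with pandas 2.3.3. The members and lists were chosen with earlier results of these data known. Alternatives covered the thresholds, pseudocount, filter, scaling, variance prior, samples fitted, replicate block and each library left out.

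Since identifiers carry no names, at most 2 rises and 2 falls are named per comparison: the 2 members highest early; the largest differences among members whose stages do not overlap; and the largest share differences among calls, or, with fewer than 2 calls in a direction, among members whose early and late libraries do not overlap.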

Additional observations from a re-analysis of the deposited data

How the results depend on the processing

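Leaving out any library kept all 125 members, since the rule uses minima and maxima, and gave 132 to 280 genes in all (188 without egg replicate 1, 247 without egg replicate 2, 280 without stage 26 replicate 2). The rule gave 81 genes with an early minimum of 100 TPM, 300 with a late ratio of 0.5 (the limit of 300 was then reached) and 40 with 0.125. With median-of-ratios scaling it gave 85 genes, 77 of them members, and with quantile normalization 86, of which 84 were members. The call count from egg to 8-cell stage was 0 in every alternative run, for the members and likewise over all genes tested. The members' median at this step was -0.88 with median-of-ratios scaling and -0.48 to 0.07 with a library left out. Both 8-cell libraries lay below both egg libraries for 75 members with that scaling (7.70% of all genes). Quantile normalization gave a count of 41 (38.1% of all genes). With a library left out it was 35 without egg replicate 1 (20.04% of all genes) to 82 without egg replicate 2 (14.2% of all genes). These counts, and the numbers of members lower, were chosen as alternatives after seeing the data.

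The 1 call from stage 26 to the tadpole became 0 with a pseudocount of 5, no filter, a filter at 5 TPM, median-of-ratios scaling, a fit to the 2 stages, without genes at 0 in all early libraries, and with the replicate block, and it was 0 to 2 with a library left out. For c116321_g1 the adjusted p was then 0.0515 to 0.262 (limma), with the log2 change between -2.96 and -2.37. The fit to the 2 stages called 0 of all genes, so the loss there was not particular to this gene. Other fits still called many of all genes higher and lower in tadpoles. These were 4671 and 1011 with a pseudocount of 5, and 4287 and 921 with no filter. The filter at 5 TPM gave 1515 and 282, and median-of-ratios scaling gave 6841 and 1493. With a library left out, the median was -1.14 to -0.27, and 74 to 116 members were lower. The count with both tadpole libraries below was then 64 to 100, where 1 library stands for a stage. It was 43 with median-of-ratios scaling (14.4% of all genes) and 51 with quantile normalization (20.9% of all genes). Replicate numbers are shared by the stages, but the replicate differences of the stages correlated at -0.27 to 0.17 over the genes tested, so the numbers were not taken as pairs. The replicate block gave 0 calls in both steps (0 of all genes). It gave 2 in transcript shares (309 of the 7927 genes tested), where c73313_g1 was lost (adjusted p = 0.0711, limma). Pairing stage 26 with the tadpole crosswise, added after seeing the data, gave 0 calls among the members. Over all genes tested, that fit called 2194 higher and 408 lower in tadpoles.

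Leaving out any library other than tadpole replicate 2 lost at least 1 of the 3 calls in transcript shares. Every fit with a library left out also called fewer of all genes tested than the main fit. With the leading transcript taken by mean TPM, another transcript leads in c116321_g1 (-49.1 points, adjusted p = 0.0104, limma, still a call) and c73313_g1 (-28.5 points, adjusted p = 0.118, limma, no longer a call), which turns the sign. Depth is unknown, so late values near 1 TPM are the least certain.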

Other observations

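Replicate differences of the late stages ran in opposite directions across the members. The log2 difference of replicate 2 minus replicate 1 at stage 26 correlated at r = -0.64 with that in tadpoles over the 125 members, and at r = -0.27 over all genes tested. The correlations for the other pairs of stages were between -0.075 and 0.089 over the members. In tadpoles, replicate 1 was above replicate 2 for 85 of 125 members, and more than 2-fold for 31. Of the 975 other abundant early genes, 726 were higher in tadpole replicate 1 and 248 in replicate 2. The difference was more than 2-fold for 320 and 71 of these. Across the members, stage 26 replicate 2 correlated at r = 0.74 with tadpole replicate 1 and at r = 0.60 with tadpole replicate 2, and stage 26 replicate 1 at 0.52 and 0.68. The points are genes that share libraries, so these values are descriptions of 4 libraries, and their cause was not tested.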
